A study of Sus scrofa with 297 samples.

Results

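Adult German Landrace pigs with a large loin muscle and a large overlying fat area were compared with pigs in which both areas were small, by the mRNA levels of their livers. The pigs were chosen from the areas in the sample labels alone and not from any expression value. Loin eye area (LEA) is the cross section of the longissimus muscle at the last ribs, and fat area (FA) is the fat lying on that section. A pig counted as both large with LEA of at least 45.5 cm2 and FA of at least 15.5 cm2, and as both small with LEA of at most 42.0 cm2 and FA of at most 12.5 cm2. These rules took 28 both-large and 38 both-small pigs, 66 of 297 in all. Both areas were recorded for 289 pigs, and 8 pigs without them were left out. All pigs were of 1 breed, had no treatment named in the labels and were sampled at slaughter, with 1 liver array per pig. Sex, litter, feeding state and hour of slaughter were not in the labels and were not used here.

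LEA had a lowest, median and highest value of 45.7, 50.55 and 61.9 cm2 in both-large pigs, against 27.8, 39.5 and 42.0 cm2 in both-small pigs. FA was 15.8, 17.5 and 30.0 cm2 in both-large pigs, against 2.4, 9.1 and 12.3 cm2 in both-small pigs. The ratio that the labels call meat to fat was the fat area over the loin area, to within 0.01, for each of the 289 pigs. It had a median of 0.355 in both-large pigs and 0.22 in both-small pigs, so both-large pigs also had more fat area per loin area. At the edges of the rule, the smallest loin inside the both-large group was 45.7 cm2 and the largest loin just outside it, among pigs of large FA, was 45.2 cm2. The largest loin inside the both-small group was 42.0 cm2 and the smallest just outside it, among pigs of small FA, was 42.2 cm2.

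**Figure D1:**
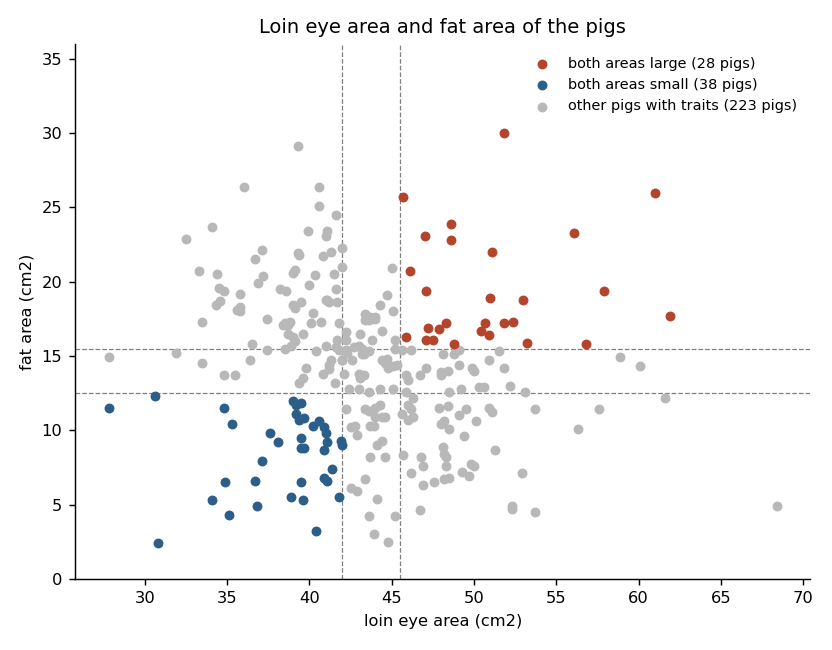
Loin eye area (x axis, cm2) against fat area (y axis, cm2) of the 289 pigs with traits, 1 point per pig, with dashed lines at the thresholds. The 28 both-large pigs fill the upper right corner and the 38 both-small pigs the lower left, and 223 pigs lie elsewhere.

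The liver supplies and clears much of what muscle and fat tissue use. It makes fatty acids from surplus carbohydrate, stores glucose as glycogen, releases glucose between meals and degrades amino acids. Many of its genes follow the clock, meals and stress hormones. Immediate early genes such as FOS and JUN are transcribed within minutes of a stimulus and fall back soon after, and glucocorticoids induce enzymes of glucose and amino acid metabolism.

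Signals were log2 values, so that a difference of 1 is a doubling. Of 47722 probe sets tested, 26426 carried a gene symbol, for 13755 genes, and 21296 carried none. The arrays were close to each other, with Pearson's r between pairs from 0.929 to 0.988 and array medians of 5.58 to 5.78 in both-large pigs and 5.63 to 5.76 in both-small pigs. The median SD of a probe set within the groups was 0.288, and the number of pigs limits the precision. The liver label was checked against hepatocyte markers, of which ALB was highest with a mean of 13.95, against a median of 5.68 over all probe sets. AHSG, also a hepatocyte marker, was at 2.98.

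Animal numbers were grouped by their first 2 digits into 9 number series, whose meaning the labels do not state. The groups were spread unevenly over them. Series 21, 22 and 23 held 16 both-large and no both-small pigs, 12 of them in series 21. Series 24, 26 and 27 held 18 both-small and no both-large pigs, 10 of them in series 27. Only series 25, 28 and 29 held both, with 12 both-large and 20 both-small pigs. For the pigs of the other 6 series, group and number series cannot be told apart, so the difference of each called gene is given without and with number series as a block.

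Without the block, 691 of 47722 probe sets (1.45%) differed at an FDR of 5% by limma, 364 higher (0.763%) and 327 lower (0.685%) in both-large pigs. With the block none did, and the smallest adjusted p was 0.914. At an unadjusted p under 0.05, 9499 probe sets passed without the block and 1531 with it. The differences of the 691 were modest, with a median size of 0.31 and a highest of 1.399. With the block 674 of them had the same sign, their median size was 0.16 and 189 had an unadjusted p under 0.05. The block difference rests on the 32 pigs of the 3 series that held both groups. Those pigs also entered the fit without the block, so the shared signs are partly built in. Counted by gene, with 1 probe set each, 83 genes were higher (0.603%) and 135 lower (0.981%) in both-large pigs, out of 13755, together 1.58%. "Called" below means past an FDR of 5% without the block, and no gene was called with it. Each count of called list members below is to be read beside these shares over all genes. Genes of the immediate early response, targets of glucocorticoids and SIK1 were among the lower ones. Genes of fatty acid synthesis, glycogen targeting and the clock output were among the higher ones.

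The immediate early and AP-1 genes, which encode short-lived regulators of transcription and growth, had more called members than any other list. Of 16 measured, 5 were called lower in both-large pigs and none higher, where 0.981% of all genes were called lower. All 16 differences were below 0, as were 7770 of 13755 over all genes. With the block 15 of 16 were below 0, against 6639 of 13755. Their median difference was -0.44, against -0.02 for all genes, and -0.33 with the block, against 0.00 for all genes. GADD45B, a stress sensor that acts on MAP kinase signalling, had a lowest, median and highest signal of 5.98, 6.915 and 8.10 in both-large pigs, against 6.51, 8.14 and 10.77 in both-small pigs. The groups overlapped, but the highest both-large pig was below the median of the both-small pigs. The difference was -1.24 (SE 0.24, adjusted p = 0.00551), a 0.425-fold level, and it was -0.67 (SE 0.33, unadjusted p = 0.0446) with the block. BTG2, an antiproliferative gene that p53 also induces, was at 8.95, 10.05 and 10.86 in both-large pigs, against 9.35, 10.675 and 12.67 in both-small pigs. Its difference of -0.77 (SE 0.17, adjusted p = 0.0155) became -0.68 with the block (SE 0.24, unadjusted p = 0.00615), and both probe sets of the gene were called. ZFP36, which marks inflammatory mRNAs for decay, differed by -0.80 (adjusted p = 0.0391), and by -0.64 (unadjusted p = 0.0318) with the block. JUN, a subunit of the AP-1 factor, differed by -0.41 (adjusted p = 0.0307), and by -0.24 (unadjusted p = 0.108) with the block. GADD45G, a relative of GADD45B, differed by -0.53 (adjusted p = 0.0277), and by -0.33 (unadjusted p = 0.0841) with the block. Not called were FOS, at -0.47 (adjusted p = 0.147), and JUNB, at -0.67 (adjusted p = 0.0604), which were picked out after their values were seen.

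SIK1, a kinase that cAMP induces and that restrains the glucose-producing programme of hepatocytes, had the smallest p of all lower genes. Its signal was 6.27, 7.51 and 8.95 in both-large pigs, against 6.63, 8.665 and 10.40 in both-small pigs. The difference was -1.20 (SE 0.21, adjusted p = 0.00364), a 0.436-fold level, and -0.75 (SE 0.29, unadjusted p = 0.0118) with the block. Within the shared series, the both-large mean minus the both-small mean was -0.91 in series 25, -1.13 in series 28 and -0.39 in series 29. SIK1 was thus lower in both-large pigs in each of the 3 series, by unequal amounts. CREM, a transcription factor of the same cAMP response, was at 6.56, 7.29 and 7.76 in both-large pigs, against 6.06, 7.815 and 9.64 in both-small pigs. It was lower, with a difference of -0.72 (SE 0.17, adjusted p = 0.024), with -0.62 (unadjusted p = 0.00573) under the block, and 3 of its 7 probe sets were called.

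**Figure D2:**
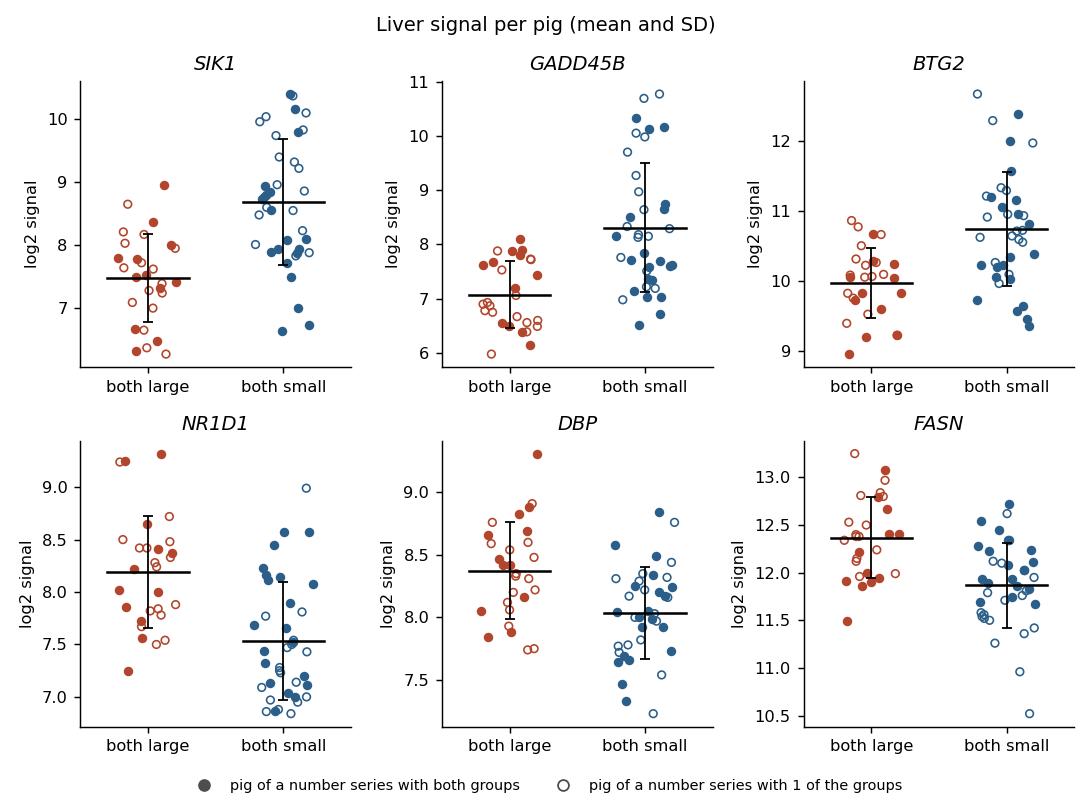
Log2 signal (y axis) of 6 called genes in each both-large pig (left) and both-small pig (right), with the mean and SD as lines; filled points are pigs of number series that hold both groups. SIK1, GADD45B and BTG2 stay at or below 8.95, 8.10 and 10.86 in both-large pigs and reach 10.40, 10.77 and 12.67 in both-small pigs, while for NR1D1, DBP and FASN the both-large mean is the higher one.

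Targets of the glucocorticoid receptor were compared next. Of 15 measured, 3 were called lower, where 0.981% of all genes were called lower. Below 0 were 13 differences, also with the block, beside the counts over all genes given above. Their median was -0.25, and -0.15 with the block. ZBTB16, a zinc finger repressor strongly induced by glucocorticoids, was at 7.13, 8.23 and 9.20 in both-large pigs, against 7.82, 8.885 and 9.49 in both-small pigs. The difference of -0.56 (SE 0.11, adjusted p = 0.00579) shrank to -0.15 (unadjusted p = 0.236) with the block. SGK1, a kinase that controls ion transport and is induced by glucocorticoids, was lower, with a difference of -0.72 (SE 0.18, adjusted p = 0.0288), and -0.46 (unadjusted p = 0.0781) with the block. TAT, which opens the breakdown of tyrosine, was lower, with a difference of -0.25 (SE 0.07, adjusted p = 0.0328), and -0.20 (unadjusted p = 0.0416) with the block. The receptor gene itself, NR3C1, was not called, with a difference of 0.09 (adjusted p = 0.459). CEBPB, a transcription factor of the acute phase and of gluconeogenesis, was the called member among 16 genes of interleukin-6 and STAT3 signalling, lower, with a difference of -0.43 (adjusted p = 0.0312), and -0.25 (unadjusted p = 0.11) with the block. The 20 acute phase proteins measured, products of that pathway, had no called member and a median difference of -0.04.

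In the clock list, 2 of 16 genes were called higher and 1 lower in both-large pigs, against 0.603% and 0.981% of all genes. The median of the list was 0.03. NR1D1, the REV-ERB alpha repressor of the clock and of lipogenic genes, was at 7.25, 8.23 and 9.32 in both-large pigs, against 6.84, 7.435 and 8.99 in both-small pigs. The ranges overlapped over most of their span. The difference of NR1D1 was 0.66 (SE 0.13, adjusted p = 0.00752), and 0.52 (SE 0.18, unadjusted p = 0.00501) with the block, and both probe sets were called. Within series 25, 28 and 29 the difference was 0.97, 0.40 and 0.39. DBP, a clock output factor that drives detoxification genes, was at 7.74, 8.385 and 9.31 in both-large pigs, against 7.23, 8.035 and 8.84 in both-small pigs. It was higher by 0.34 (SE 0.09, adjusted p = 0.0425), and the block left it at 0.45 (SE 0.13, unadjusted p = 0.00127). NFIL3, which binds the same sites as DBP and represses them, was lower, with a difference of -0.53 (adjusted p = 0.0441), and -0.50 (unadjusted p = 0.0213) with the block. CRY1, a core repressor of the clock, was not called without the block at -0.28 (adjusted p = 0.294), and its difference was -0.67 (unadjusted p = 0.000179) with the block; it was picked out after its values were seen. The hour at which each pig was sampled was not used here, and its part in these values was not tested.

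Fatty acid synthesis had 2 called members of 13, both higher in both-large pigs, where 0.603% of all genes were called higher. Of the 13 differences 11 were above 0, against 5985 of 13755 over all genes. With the block 9 of 13 were above 0, against 7116 of 13755. The median of the list was 0.15, and 0.11 with the block. FASN, the enzyme that builds palmitate, was at 11.49, 12.38 and 13.25 in both-large pigs, against 10.52, 11.875 and 12.72 in both-small pigs. The difference of 0.50 (SE 0.11, adjusted p = 0.0115) was a 1.41-fold level, and it was 0.11 (SE 0.13, unadjusted p = 0.399) with the block. Within series 25, 28 and 29 the FASN difference was 0.42, -0.03 and 0.05, so it lay close to 0 in the larger shared series. MLXIPL, the carbohydrate-sensing factor ChREBP that drives lipogenesis, was higher by 0.28 (SE 0.08, adjusted p = 0.0442), and 0.27 (SE 0.12, unadjusted p = 0.0227) with the block. PKLR, the liver pyruvate kinase and a target of ChREBP, was the called one of 14 genes of glycolysis and fructose metabolism, higher by 0.35 (SE 0.09, adjusted p = 0.0391), and by 0.26 (unadjusted p = 0.0513) with the block. ACACA, which makes malonyl-CoA for FASN, missed the call at 0.48 (adjusted p = 0.0522) by the probe set that stands for it, while 1 of its 4 probe sets was called higher, and likewise 1 of 4 for GPAM, which opens triglyceride synthesis. The study names ACACA among hub genes of a fat-related co-expression module found in these pigs, so that list is not independent evidence, and none of its 4 measured members was called by its own probe set.

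Both glycogen-targeting subunits of protein phosphatase 1 that were called were higher in both-large pigs, and both varied widely among pigs. PPP1R3C was at 8.05, 9.74 and 11.75 in both-large pigs, against 5.59, 8.735 and 11.92 in both-small pigs. The ranges overlapped almost wholly at the upper end, and the low values were in both-small pigs. The difference was 1.24 (SE 0.33, adjusted p = 0.0363), a 2.36-fold level, but 0.21 (SE 0.44, unadjusted p = 0.636) with the block. PPP1R3B, the main such subunit of liver, was at 7.18, 8.61 and 10.32 in both-large pigs, against 5.88, 7.895 and 10.03 in both-small pigs. It was higher by 0.96 (SE 0.23, adjusted p = 0.0248), and by 0.19 (SE 0.31, unadjusted p = 0.559) with the block. The list of gluconeogenesis and glycogen genes held 13 measured members, of which these were higher and SIK1 was lower. Of all genes, 1.58% were called. PCK1 and G6PC, the enzymes that commit to and release new glucose, were not called, at -0.49 (adjusted p = 0.0977) and -0.36 (adjusted p = 0.0984).

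PPP1R3C, PPP1R3B, SGK1, SLC25A25 and G6PC are the hub genes that the study gives for a muscle-related module, chosen on these same pigs and so not independent evidence of direction. Of the 5, 2 were higher and 2 lower in both-large pigs. SLC25A25, a mitochondrial carrier of ATP-magnesium, was at 6.24, 7.655 and 9.23 in both-large pigs, against 7.37, 8.32 and 10.05 in both-small pigs. It was lower, with a difference of -0.81 (SE 0.16, adjusted p = 0.00673), and the block left -0.69 (SE 0.21, unadjusted p = 0.00187). Another carrier, SLC25A4, which exchanges ADP and ATP, was higher by 0.16 (adjusted p = 0.0306), and by 0.10 (unadjusted p = 0.0946) with the block. These were the called ones of 25 mitochondrial carriers, where 1.58% of all genes were called.

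Without the block, the called genes of lipid storage and sterol regulation were lower in both-large pigs. Of 15 genes of triglyceride synthesis and lipid droplets, 3 were called, all lower in both-large pigs, where 0.981% of all genes were called lower. The list's median was -0.01. With the block its median was 0.04, and 9 of 15 differences were above 0, against 7116 of 13755 over all genes. There, an unadjusted p under 0.05 was reached by 2 higher members and 0 lower ones. GPAM, also in this list, had 1 of 4 probe sets called higher. LPIN1, a phosphatidate phosphatase and coactivator induced in fasting, was lower, with a difference of -0.50 (SE 0.13, adjusted p = 0.0337), and -0.19 (unadjusted p = 0.264) with the block. LPIN2, the related phosphatase, was lower, with a difference of -0.32 (adjusted p = 0.0441), and -0.21 (unadjusted p = 0.0956) with the block. MGLL, which splits monoacylglycerol, differed by -0.25 (adjusted p = 0.0361), and by -0.07 (unadjusted p = 0.41) with the block, and by 0.06 within series 28. INSIG1, which holds back sterol synthesis, was the called one of 16 sterol genes, lower, with a difference of -0.53 (SE 0.13, adjusted p = 0.0223), and -0.38 (unadjusted p = 0.0246) with the block. Of the 16 sterol differences 8 were above 0 and 8 below, with a median of 0.01. With the block 3 were above 0 and 13 below, with a median of -0.12, against 6639 of 13755 below 0 over all genes. PHYH, an enzyme of phytanic acid breakdown in peroxisomes, was the called one of 22 genes of fatty acid oxidation and ketogenesis. It was at 10.47, 11.345 and 11.65 in both-large pigs, against 10.08, 10.96 and 11.53 in both-small pigs, higher by 0.36 (SE 0.08, adjusted p = 0.00918), and by 0.14 (unadjusted p = 0.167) with the block.

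The other genes with the smallest p among the higher ones had varied roles. ARRDC3, an arrestin-like adaptor that directs receptors to degradation, was at 6.05, 6.82 and 7.65 in both-large pigs, against 3.65, 6.075 and 7.37 in both-small pigs. The difference of 0.89 (SE 0.16, adjusted p = 0.00364) had 2 of 4 probe sets called, and it was 0.52 (unadjusted p = 0.0212) with the block. OTOP3, a proton channel, was at 5.15, 7.335 and 9.28 in both-large pigs, against 5.06, 5.90 and 8.14 in both-small pigs. It was higher by 0.996 (SE 0.22, adjusted p = 0.0131), and by 0.72 (unadjusted p = 0.0288) with the block, but within series 29 the difference was -0.01. DOPEY2, a protein of endosome and Golgi traffic, was at 5.78, 6.28 and 6.98 in both-large pigs, against 5.52, 6.04 and 6.44 in both-small pigs. DOPEY2 was higher by 0.28 (SE 0.06, adjusted p = 0.0147), and by 0.38 (SE 0.09, unadjusted p = 0.000132) with the block, the smallest p under the block among the higher called genes. CNIH3, a cornichon protein of receptor export, was higher by 0.22 (adjusted p = 0.0492), and 0.30 (unadjusted p = 0.000393) with the block, with 3 of 4 probe sets called. HDHD3, a hydrolase-like protein, was higher by 0.41 (adjusted p = 0.013), and 0.43 (unadjusted p = 0.00195) with the block.

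RNF43 and TBX3, a ligase and a transcription factor that Wnt signalling induces around the central vein, were the called ones of 11 pericentral genes. Over all genes 1.58% were called. RNF43 was higher by 0.43 (adjusted p = 0.00902), and by 0.30 (unadjusted p = 0.0191) with the block. TBX3 was higher by 0.41 (adjusted p = 0.0361), and by 0.14 (unadjusted p = 0.33) with the block. NR1I2, the xenobiotic receptor PXR, was higher by 0.30 (adjusted p = 0.0191), and by 0.18 (unadjusted p = 0.0855) with the block. ALDH1A1, which oxidises retinal, was higher by 0.73 (adjusted p = 0.0319), and by 0.38 (unadjusted p = 0.13) with the block. ADIPOR2, a receptor of adiponectin, was higher by 0.26 (adjusted p = 0.0277), and by 0.19 (unadjusted p = 0.0324) with the block. Also higher were TMEM45B by 0.30, YPEL5 by 0.35, SHPK by 0.35 and PLEKHG4B by 0.20, with 0.20, 0.22, 0.32 and 0.25 under the block in that order. ALDH9A1, an aldehyde dehydrogenase, was higher by 0.20 without the block, but by 0.03 (unadjusted p = 0.555) with it, and the difference was above 0 in 1 of the 3 shared series. SFTPA1 was higher by 0.63 (adjusted p = 0.024), and by 0.59 (unadjusted p = 0.0106) with the block.

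Among the lower genes, BTG3, an antiproliferative relative of BTG2, was at 5.56, 6.79 and 8.52 in both-large pigs, against 5.77, 7.92 and 10.34 in both-small pigs. It was lower, with a difference of -1.07 (SE 0.21, adjusted p = 0.00579), and -0.85 (SE 0.30, unadjusted p = 0.00592) with the block. BAG3, a cochaperone induced with heat shock proteins, was at 7.76, 9.66 and 11.07 in both-large pigs, against 9.05, 10.735 and 11.83 in both-small pigs. It was lower, with a difference of -0.87 (SE 0.18, adjusted p = 0.00918), and -0.24 (unadjusted p = 0.218) with the block, and it was the called one of 17 heat shock genes. Of these 17 differences 15 were below 0, against 7770 of 13755 over all genes. With the block 17 were below 0, against 6639 of 13755. The median of the heat shock list was -0.10, and -0.15 with the block. EEPD1, a nuclease-like protein with a role in cholesterol efflux, was lower, with a difference of -0.75 (SE 0.15, adjusted p = 0.00673), and -0.29 (unadjusted p = 0.0785) with the block. PLK3, a stress-activated kinase that p53 induces, was lower, with a difference of -0.36 (adjusted p = 0.0466), and -0.30 (unadjusted p = 0.0516) with the block. ZNF23 differed by -0.71, HIVEP2 by -0.43, YWHAH by -0.30 and TRIO by -0.17, with adjusted p-values of 0.00673, 0.00918, 0.00762 and 0.00884 in that order, and with the block by -0.43, -0.30, -0.21 and -0.12. RASSF2, TNFRSF11A, FAM89A and CCT5 were also lower, with differences of -0.26, -0.36, -0.34 and -0.15, and of -0.22, -0.40, -0.40 and -0.18 with the block. These 4 genes were named for their small p under the block.

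**Figure D3:**
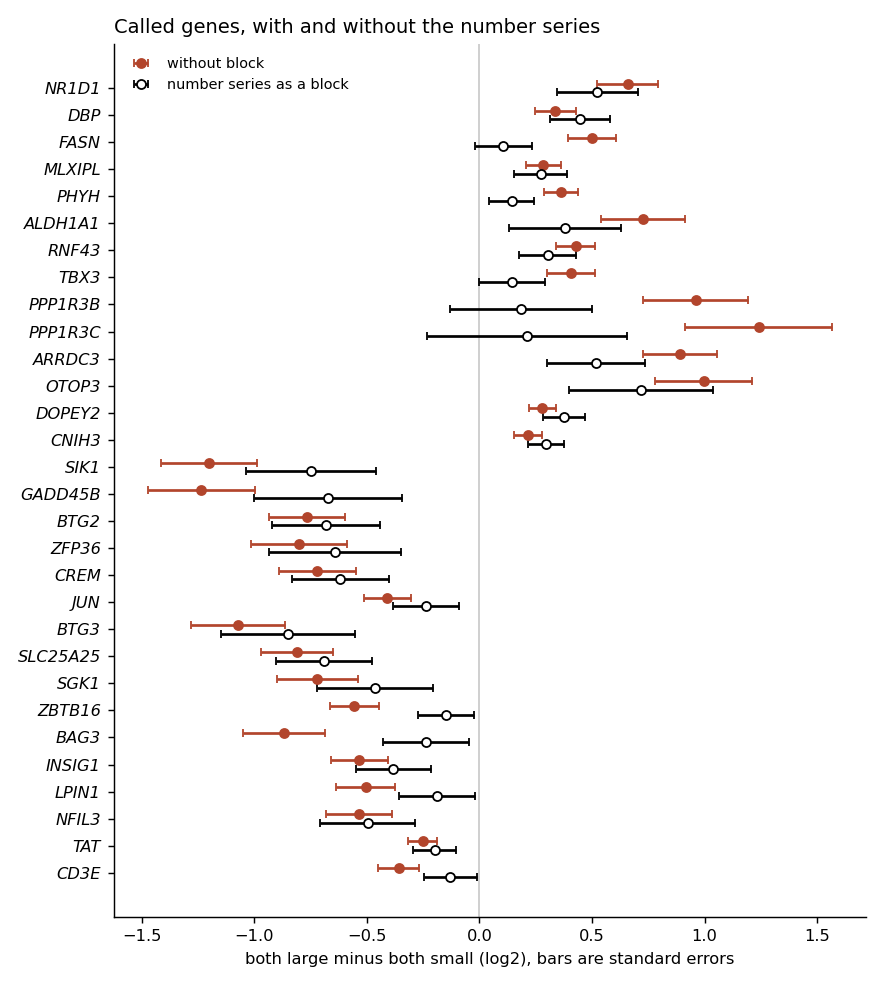
Difference of both-large minus both-small pigs (x axis, log2) for 30 called genes, with SE bars, without the block (filled) and with number series as a block (open). Some of the genes, such as DOPEY2 and CNIH3, were named for their small p under the block, where they lie at 0.38 and 0.30; among the others, FASN lies at 0.50 without the block and 0.11 with it, ZBTB16 at -0.56 and -0.15, and PPP1R3C at 1.24 and 0.21.

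The 56 lists together held 784 measured genes, of which 34 were called, beside 218 of 13755 (1.58%) over all genes. A called member was found in 22 lists and none in 34. None was called among 30 nuclear-encoded subunits of the respiratory chain, 35 cytosolic ribosomal proteins, 27 proteasome subunits, 27 complement and coagulation factors, 24 interferon and antigen presentation genes, 23 cell cycle genes or 8 genes of the urea cycle. At a share of 1.58% a list of this size would often hold no call, so the absence of calls says little about these lists. The medians of these lists lay between -0.03 and 0.05. These counts rest on 1 probe set per gene, and 14 uncalled list genes had another probe set called, 10 of them higher and 4 lower. For the arginase gene ARG2, 2 of 8 probe sets were called lower, and for OTC, an enzyme of the urea cycle, 1 of 4 was called higher. The 16 genes of conjugation and drug transport had the highest median among pathway lists without a call, 0.12, and 0.03 with the block. Medians of -0.09, -0.08 and -0.08 were found for the growth hormone and IGF axis, insulin signalling and FOXO, and the unfolded protein response. CYP7A1, the rate-limiting enzyme of bile acid synthesis, was not called at 0.61 (adjusted p = 0.0832). SOCS2, a feedback inhibitor of growth hormone signalling, was not called at -0.67 (adjusted p = 0.0652), though 1 of its 2 probe sets was called lower. Of 10 genes that the study names for body composition on these pigs, none was called, and the closest were TMSB10 at -0.27 (adjusted p = 0.0643) and TLR5 at 0.25 (adjusted p = 0.0746).

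Markers of other cells in the liver were compared as well. Of 13 T and NK cell markers, 12 differences were below 0, against 7770 of 13755 over all genes, with a median of -0.17. With the block 11 of 13 were below 0, against 6639 of 13755, with a median of -0.12. CD3E, a chain of the T cell receptor complex, was the called one, at 5.42, 5.975 and 7.05 in both-large pigs, against 5.57, 6.365 and 7.16 in both-small pigs, lower, with a difference of -0.36 (SE 0.09, adjusted p = 0.029), and -0.13 (unadjusted p = 0.273) with the block. The mean of the 13 markers per pig was 6.42 to 7.20 in both-large pigs, against 6.55 to 7.29 in both-small pigs, and the lowest of them, KLRK1, averaged 4.65. In whole liver, fewer cells of a type and less RNA per cell cannot be told apart. All 10 neutrophil and monocyte markers were below 0, with a median of -0.11 and none called. With the block 8 of 10 were below 0, with a median of -0.06, beside the same counts over all genes. Markers of Kupffer cells, endothelium, stellate cells, bile ducts, B cells, red cells, muscle, fat and pancreas had no called member either, where 1.58% of all genes were called. Their medians were -0.04, -0.03, -0.12, -0.10, -0.02, -0.09, -0.07, -0.05 and -0.05 in that order. With the block these were -0.01, 0.03, -0.04, 0.01, -0.002, -0.02, -0.01, 0.02 and 0.02. Of 13 stellate cell markers 10 were below 0, and 8 with the block. Of 6 bile duct markers 6 were below 0, and 2 with the block. Medians below 0 were thus not particular to T cells and neutrophils. The part of these cells in the other differences was not tested. The mean score of X-linked genes was -0.988 to 1.045 with a median of 0.037 in both-large pigs, against -1.101 to 1.055 with a median of 0.076 in both-small pigs. KDM5C, an X-linked histone demethylase, was lower, with a difference of -0.19 (adjusted p = 0.0361), and -0.12 (unadjusted p = 0.0992) with the block, the called one of 11.

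**Figure D4:**
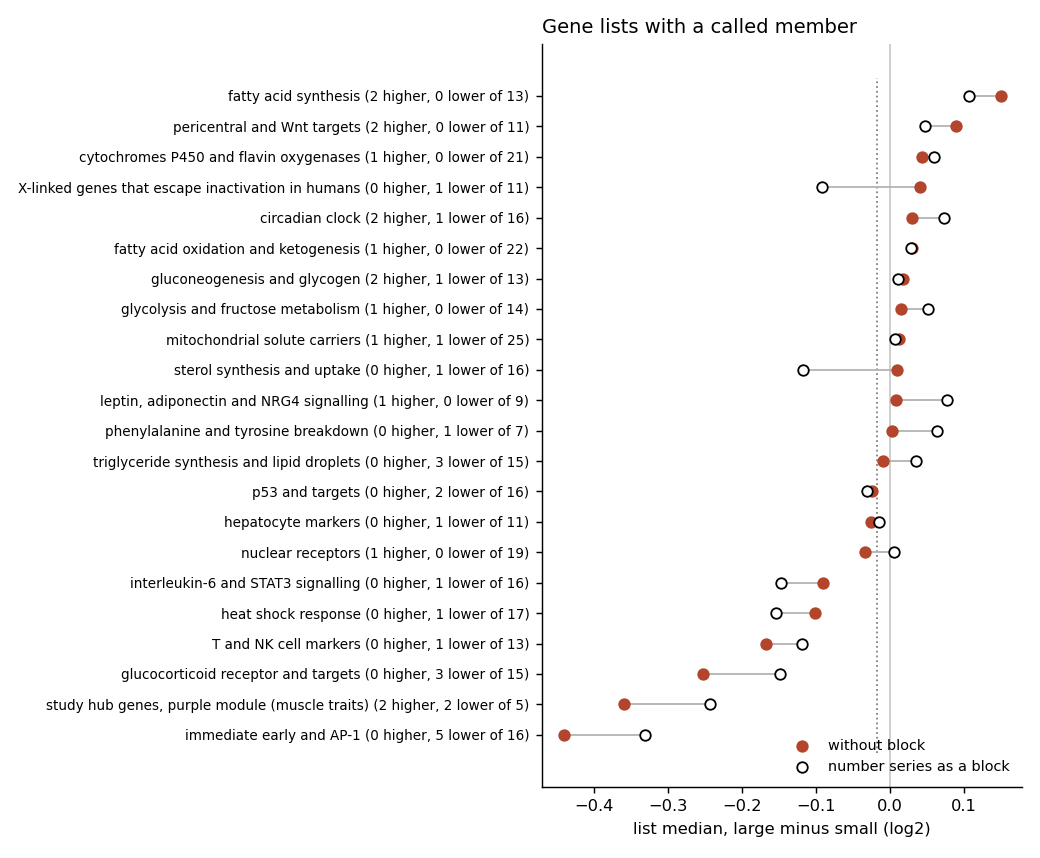
Median difference (x axis, log2, both large minus both small) of each list with at least 1 called member, without the block (filled) and with it (open), and the median of all genes as a dotted line. Immediate early genes lie lowest at -0.44 and -0.33, glucocorticoid targets at -0.25 and -0.15, and fatty acid synthesis highest at 0.15 and 0.11.

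How far the differences followed number series was measured in several ways. Number series accounted for a median of 12.4% of the variance of a probe set over all pigs with traits, and 20.7% for the 691 called ones. For 16 both-large and 18 both-small pigs, the difference that called these cannot be told apart from number series. A higher share among the called ones is thus partly built in. For BAG3 the share was 44.5% and for EEPD1 44.1%, against 8.6% for DBP and 7.1% for OTOP3. Pigs of neither group in series 21 (16) had a mean SIK1 signal of 7.41, and pigs of neither group in series 27 (10) one of 9.24. In those pigs PPP1R3C averaged 10.05 in series 21 and 7.91 in series 27, and BAG3 9.42 and 10.83. Those of series 21 were 2 with a large loin and small FA, 5 with a small loin and large FA, and 9 remaining ones. In series 27 the same classes held 0, 5 and 5. Their areas were not matched, so loin size and number series cannot be told apart in these means. Without series 21 no probe set was called, and without series 27 there was 1. When only the series that held 1 of the groups were compared, 5202 probe sets were called. In the pigs of the shared series, which are other animals, 2866 of these (55.1%) had the same sign, against 50.7% of all probe sets, and their median size was 0.06, against 0.36 in the pigs that called them.

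**Figure D5:**
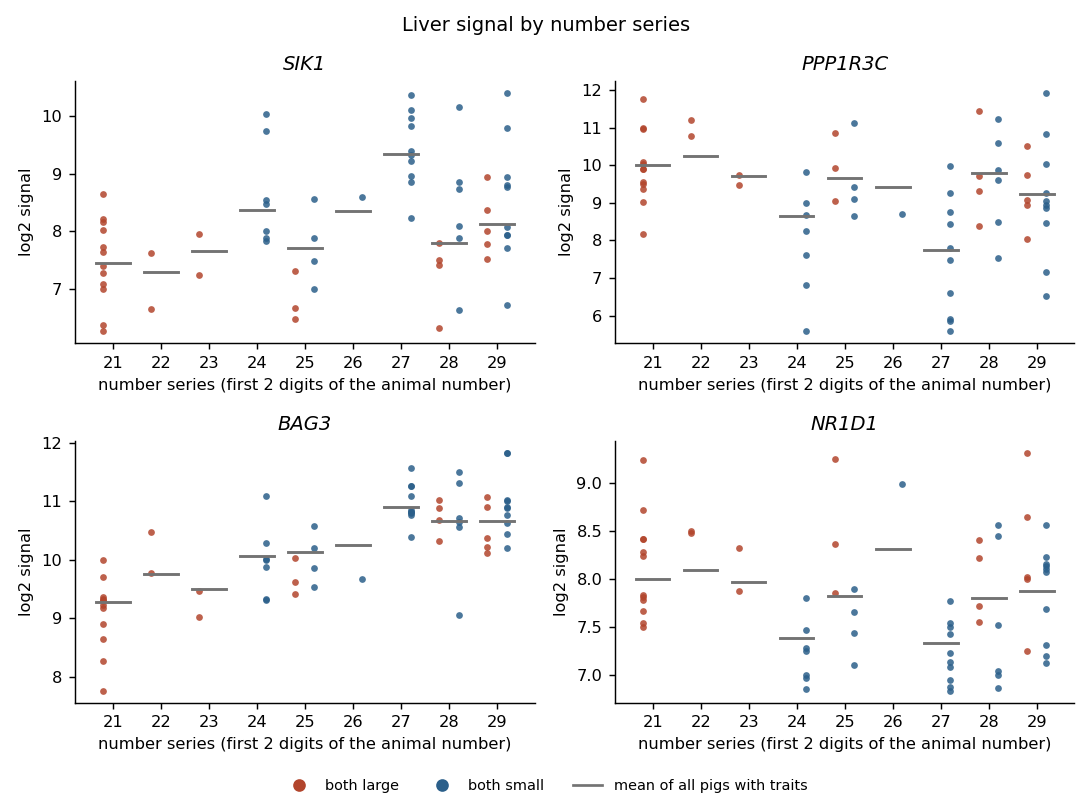
Log2 signal (y axis) of SIK1, PPP1R3C, BAG3 and NR1D1 by number series (x axis), with 1 point per both-large or both-small pig and grey bars for the mean of all pigs of a series. SIK1 averages 7.44 in series 21 and 9.33 in series 27, and PPP1R3C 10.001 and 7.74, over all their pigs, those drawn as points included.

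Pigs with a large loin and small fat area (44), with a small loin and large fat area (65), and the remaining ones with traits were set beside both groups. The genes were chosen for the difference between both groups, so the order of the medians is a description only. For SIK1 the medians were 7.51 in both-large pigs, 7.91 with a large loin and little fat, 7.61 with a small loin and much fat, 7.805 in the remaining pigs and 8.665 in both-small pigs. The median of the both-small pigs was the highest, and the other medians lay between 7.51 and 7.91. For FASN the both-small median was the lowest, with medians of 12.38, 12.32, 12.34, 12.24 and 11.875 in those groups. For OTOP3 the both-large median was the highest, with 7.335, 6.065, 6.16, 6.065 and 5.90. Over the 4 corner groups, with number series as a block, no probe set was called for loin size, 14 (0.0293%) were called for fat area, and none for the interaction. An unadjusted p under 0.05 was reached by 1936 probe sets for loin, 3301 for fat and 3445 for the interaction. For DOPEY2 the fat difference was 0.17 (unadjusted p = 1.8e-05) and the loin difference 0.10 (unadjusted p = 0.0186). For SIK1 these were -0.39 (unadjusted p = 0.01) and -0.09 (unadjusted p = 0.574), and for NR1D1 0.27 (unadjusted p = 0.00268) and 0.11 (unadjusted p = 0.265).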

How the data were processed

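Liver RNA was hybridised to Affymetrix Porcine Snowball arrays. The authors deposited log2 signals, which their methods describe as normalized by robust multichip average in Expression Console, and GCOS 1.1.1 is named in the submitters' processing notes. Arrays carry no read depth. Of 47845 probe sets 123 controls were left out, and symbols came from the platform annotation. A gene was represented by its probe set with the highest mean. Both-large minus both-small differences were fitted with limma 3.58.1 in R 4.3.3 (lmFit, eBayes with trend and robust), with Benjamini-Hochberg adjustment over 47722 probe sets and an FDR of 5%. The fit was tested on simulated data drawn independently for each pig, without number series or relationship. That test could not show how the fit behaves where group and number series cannot be told apart. Number series as a block, all 289 pigs with traits with the block, and the 4 corner groups were fitted as well. The study's adjustment for relationship, population components, sex and carcass weight could not be repeated here. P-values measure the spread between pigs, which may be relatives.

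The text names the 12 genes with the smallest p in each direction, the 8 in each direction with the smallest p under the block, up to 5 called members of each of 56 gene lists (or 2 where none was called), genes that the study names for body composition, and sex-linked genes. Some of these are counted without being named. NR3C1, PCK1, G6PC, FOS, JUNB and CRY1 lie outside this rule and were picked out after their values were seen. The pigs, lists and tests were chosen with earlier results of these data known. Alternatives were other pigs, tests, weights, covariates and filters. Python 3.11.15, numpy 2.4.6, pandas 2.3.3 and matplotlib 3.10.9 were used. No sequences are shown.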

Additional observations from a re-analysis of the deposited data

How the results depend on the processing

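The count of 691 called probe sets depended above all on number series. It was 0 with number series as a block, 0 in all pigs with traits with the block, 0 in the shared series alone with the block, and 0 without series 21, where 1531, 2511, 1882 and 3762 probe sets had an unadjusted p under 0.05. A rank-sum test called 327, array weights 1513, adjustment for the X-linked score 1290, and an FDR of 1% 45. It stayed within 1.5 times of 691 for the 23872 brighter probe sets (655, of which 260 were higher and 395 lower, a split unlike that of all probe sets), without the 2 pigs farthest from each group (505), and without trend and robust estimation (671). Chosen after the data had been seen, the comparison without series 24, 27, 28 and 29 called 2549, 1, 2135 and 1352, and without series 22, 23, 25 or 26 it called 568, 464, 574 and 617. The series with 1 of the groups alone called 5202, series 25, 28 and 29 alone 2, 0 and 0, and number series as a random block 2. The 34 called list genes became 0 with the block and 0 in all pigs with the block. Without the block, the corner groups gave 199 calls for loin in place of 0 and 292 for fat in place of 14, and 0 for the interaction either way. The cause of these changes was not tested.

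Of the 56 called genes in the text none changed sign under the block, reduced sets of pigs, brighter probe sets, rank-sum test, weights, X-linked score or plain eBayes. Genes named for a small p under the block had to keep their sign there, and the rank-sum test took the main sign. All these fits share pigs, so the kept signs are partly built in. None of the 56 passed an FDR of 5% with a block or without series 21. By the rank-sum test 34 passed, 53 with array weights, 56 with the X-linked score, 42 without the farthest pigs, and 16 at an FDR of 1%. NR3C1, not called at 0.09, changed sign to -0.014 with the block, -0.0503 in all pigs with the block and -0.014 in the shared series with the block. No paired analysis was possible because each pig has its own number in the labels.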

Other observations

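With number series as a block, 14 probe sets were called for fat area over the corner groups, and those with a symbol are given here. These pigs include all both-large and both-small ones, so the values are not independent of the main comparison. SIDT1, a transporter of double-stranded RNA, was lower, with a difference of -0.45 (SE 0.08, adjusted p = 0.00253) in the pigs of large fat area. This was 1 of its 3 probe sets, and the others were at -0.07 (unadjusted p = 0.186) and 0.04 (unadjusted p = 0.317). KDM6A, an X-linked histone demethylase, was lower, with a difference of -0.23 (adjusted p = 0.00886), but its 4 probe sets ran from -0.23 to 1.06, with 2 above 0 and 2 below. SULT1A1, a phenol sulfotransferase, was higher in 2 of 3 probe sets, by 0.32 and 0.30 (adjusted p = 0.00886 each). Its other probe set was at 0.06 (unadjusted p = 0.169). CNIH3 was higher by 0.24 (adjusted p = 0.00886). LEPR, the leptin receptor, was lower, with a difference of -0.48 (adjusted p = 0.0386), and all 8 of its probe sets were below 0. BCL2, which restrains cell death, was higher by 0.43 (adjusted p = 0.0489), with 4 of 5 probe sets above 0. The called probe sets of CNIH3, LEPR, BCL2 and EIF2S3 were not the ones that stand for these genes in the counts by gene. In the comparison of both areas these had differences of -0.51 for SIDT1, -0.20 for KDM6A, 0.24 and 0.27 for SULT1A1, 0.37 for CNIH3, -0.33 for LEPR and 0.57 for BCL2. Past an FDR of 5% there were CNIH3 (adjusted p = 0.0069), BCL2 (adjusted p = 0.0152) and ADAMTS12, a secreted metalloprotease, at -0.23 (adjusted p = 0.0247), which differed by -0.17 with fat area. EIF2S3, an X-linked gene for a subunit of a translation start factor, was higher with fat area by 0.86 (adjusted p = 0.023) in 1 probe set. Its other probe set was at -0.22 (unadjusted p = 0.00188). The remaining 5 probe sets had no symbol. The sex of the pigs was not used here, and its part in these values was not tested.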
